A study of Eriocheir sinensis with 6 samples.

Results

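Silent genes with strongly open promoters are gene models that gave no RNA-seq read in inter-molt muscle of the Chinese mitten crab (Eriocheir sinensis) although an intense ATAC-seq peak lay over their promoter in every library. Members were chosen on 4 criteria: an EVM gene model, on a placed sequence of the assembly (CM name), FPKM of 0 in all 3 RNA libraries, and in each of the 3 ATAC libraries a peak with a fold enrichment of at least 5 overlapping the transcription start site (TSS) with 2 kb on either side. FPKM is the number of fragments per kilobase of gene model, scaled to the size of the library, and fold enrichment is the ratio of read pileup to local background at the summit of a peak. Of 28671 genes listed, 71 met these criteria. They were 71 of the 4935 EVM genes on placed sequences that had no read (1.44%), whereas 601 of the 8555 EVM genes with at least 1 FPKM in all 3 libraries (7.03%) and 921 of all 20625 (4.47%) carried such a peak. Expression and peak height thus chose the members, and their values are given as a description.

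All 6 libraries came from muscle of untreated WT crabs between molts (C stages), 3 animals with 1 RNA library and 1 ATAC library each, and no other stage or treatment was compared. The methods describe muscle of the walking legs of juveniles, split between RNA-seq and ATAC-seq, with 1 crab per replicate. Reads assigned to genes numbered 6772294 in crab 1, 7391379 in crab 2 and 7920094 in crab 3, and ATAC peaks 57320, 49574 and 56919. The files pair no EVM model with a gene name and the RefSeq table of the species matched 0 of the 71 identifiers, so that products are not given and muscle markers could not be checked.

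ATAC-seq marks open chromatin with the Tn5 transposase, which cuts where nucleosomes are absent or loosely held, and active promoters usually show such a gap just upstream of the TSS. Enhancers and other regulatory elements are open as well, also when the gene nearest to them is not transcribed. Genes that start close together on opposite strands, known as divergent pairs, can share a single open stretch, so that a peak in the promoter window of one gene may lie at the TSS of its neighbour. For this reason each peak was set against the start sites, the bodies and the expression of all neighbouring genes.

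No read fell on any of the 71 genes in any library, in muscle taken whole, where fewer cells of a type and less RNA per cell cannot be told apart. The depth of the library and the length of the gene set how much expression such a 0 allows. With up to 3 reads allowed by a count of 0, the median limit over the members was 0.525 FPKM in crab 1, 0.392 FPKM in crab 2 and 0.949 FPKM in crab 3. For 39 members the limit was under 1 FPKM in all 3 libraries, and for the other 32, all of them short models, it reached 1 FPKM in crab 3. Crab 3 had the most reads but also the highest limits, because 1 read there was worth more on the FPKM scale of the authors, where 3 reads on a gene of 1 kb equalled 0.427 FPKM in crab 1, 0.319 FPKM in crab 2 and 0.772 FPKM in crab 3. The highest limit was 4.26 FPKM, in crab 3, for the 181 bp model evm.TU.CM024135.1.209. These limits cover counting error only. Reads that mapped to several places were left out by the authors, so that a gene with a near-identical copy could be listed at 0, and such copies were not looked for.

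A peak in every crab was a condition of the choice, but neither its height above the minimum nor the place of its summit was fixed by it. Fold enrichments spanned 5.12 to 14.9 in crab 1, 5.05 to 23.5 in crab 2 and 5.08 to 21.4 in crab 3, with medians of 7.70, 6.81 and 10.6. The 3 summits of a member lay within 50 bp of each other for 52 of 71 genes (73.2%), compared with 76.4% of the 601 expressed genes with the same kind of peak. The median distance between the outermost of the 3 summits was 31 bp in the silent genes and 23 bp in the expressed ones. Crab 3 was highest in 47 members (66.2%) and in 88.7% of the expressed genes. Over all promoters with a peak its median fold enrichment was 4.55, against 3.71 in crab 1 and 3.70 in crab 2. Relative to that median, crab 3 was highest in 37 members, crab 1 in 19 and crab 2 in 15, and in the expressed genes crab 3 was highest in 59.9%, crab 1 in 25.8% and crab 2 in 14.3%.

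**Figure D1:**
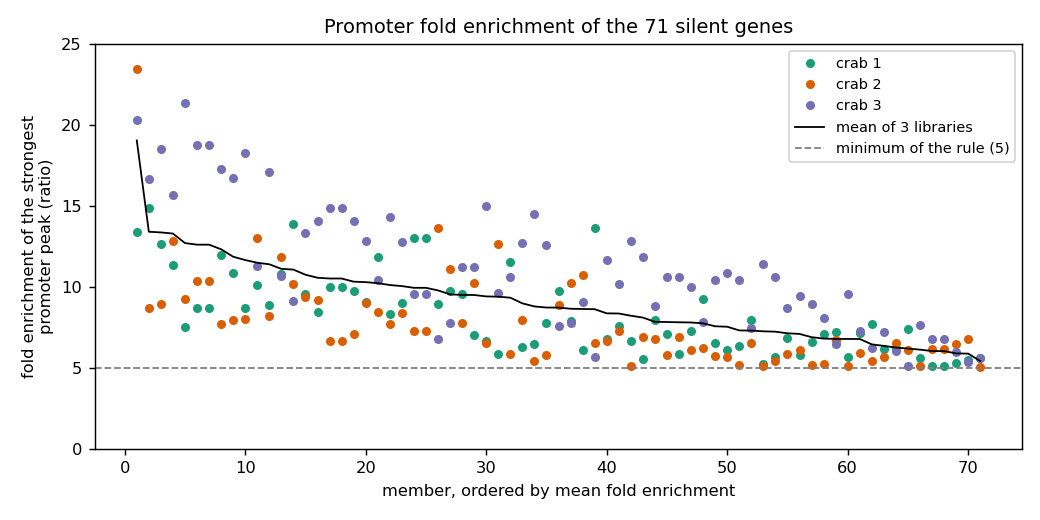
Fold enrichment (a ratio) of the strongest promoter peak of each of the 71 silent genes, 1 point per crab, ordered along the horizontal axis by the mean of the 3 libraries (black line), with the minimum of 5 as a dashed line. Crab 3 was highest in 47 genes, and the first gene stands above the others with a mean of 19.0.

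The strongest member was evm.TU.CM024096.1.321, a single-block model of 900 bp at 11834905 to 11835804 on the plus strand of sequence CM024096.1. Its fold enrichments were 13.4 in crab 1, 23.5 in crab 2 and 20.3 in crab 3, a mean of 19.0 ± 5.17 (SD, n = 3). The summits lay 468, 469 and 465 bp downstream of the TSS, inside the model, under peaks only 285, 289 and 290 bp wide. No other TSS was closer than 112177 bp to the summit of crab 1, and the nearest expressed one, meaning at least 1 FPKM in all 3 crabs, was 263197 bp away. Members made up 7.71% of all 921 genes with a strong peak. Among the 10 of these with the highest mean fold enrichment this gene was the only member, and among the 50 highest there were 14. The median of the mean fold enrichment was 8.72 in members and 7.15 in the 601 expressed genes.

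Next came evm.TU.CM024137.1.573, a model of 567 bp at 24876092 to 24876658 on the minus strand of CM024137.1, with fold enrichments of 14.9, 8.68 and 16.7 in crabs 1, 2 and 3. Its summits fell 198, 198 and 202 bp downstream of the TSS. The same peak overlapped the promoter of a locus added by the authors that also had no read. The gene evm.TU.CM024135.1.446, at 16918961 to 16931673 on CM024135.1, had 12.6, 8.96 and 18.5, with summits 1303, 1305 and 1305 bp upstream, so that the peak was strong, placed alike in every crab, and away from the TSS. In evm.TU.CM024127.1.326, at 9097190 to 9122495 on CM024127.1, the fold enrichments were 11.3, 12.8 and 15.7, and the summits were 890, 854 and 838 bp upstream. In 4 members the fold enrichment was at least 10 in all 3 crabs.

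Several strong members had their peak close to the annotated start, the position usual for a promoter. In evm.TU.CM024153.1.65, at 1816908 to 1847959 on the plus strand of CM024153.1, the summits were 50, 65 and 38 bp upstream of the TSS, with fold enrichments of 8.71, 8.0 and 18.3. The limit on its expression was 0.414 FPKM in crab 3, where the peak was highest. In evm.TU.CM024162.1.281, at 9722452 to 9726337 on the minus strand of CM024162.1, the summits were 70, 73 and 90 bp upstream and the fold enrichments 10.9, 7.96 and 16.7. Both peaks touched no other gene, and the nearest expressed TSS was 43853 bp and 37586 bp from the summit of crab 1. The gene evm.TU.CM024142.1.416, at 12050671 to 12054950 on CM024142.1, had 12.0, 7.69 and 17.3, with summits 272, 220 and 279 bp upstream. The widest range over libraries belonged to evm.TU.CM024165.1.446_evm.TU.CM024165.1.445, a model of 89979 bp from end to end, which had 7.50, 9.24 and 21.4 with summits 330, 281 and 312 bp upstream.

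Members just inside the threshold were evm.TU.CM024126.1.102, with 5.61, 5.05 and 5.59 in crabs 1, 2 and 3, evm.TU.CM024135.1.54, with 7.38, 6.11 and 5.08, and evm.TU.CM024112.1.303, with 5.27, 5.11 and 11.4. Just outside were evm.TU.CM024145.1.301, with 5.06, 4.96 and 5.35, evm.TU.CM024162.1.353, with 4.96, 4.95 and 6.41, and evm.TU.CM024156.1.155, with 6.28, 4.94 and 7.61. The values run through the minimum without a gap, and so the number of members depends on it. A minimum of 4 gave 137 genes and a minimum of 7 gave 29. With crab 1 left out of both assays the rule found 110 genes, with crab 2 left out 125 and with crab 3 left out 90.

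In most silent genes the strong peak did not sit at the TSS. The lead peak, the one with the highest fold enrichment in the promoter window, had its summit at a median distance of 882, 854 and 880 bp from the TSS in the ATAC libraries of crabs 1, 2 and 3, against 224, 224 and 240 bp in the 601 expressed genes with the same kind of peak. That is 872 ± 15.6 bp in silent genes and 229 ± 9.24 bp in expressed genes (SD over 3 libraries). The difference was 643 ± 14.2 bp, in the same direction in 3 of 3 libraries. The same genes were measured in each library, so that this SD leaves out the spread between genes. The lower and upper quartiles over genes were 274.5 and 1531 bp in silent genes and 59.3 and 669 bp in expressed genes (means of 3 libraries). An exact sign-flip permutation test of the difference over 3 libraries (two-sided) gave p = 0.25, the smallest that it can give, and adjusted p = 0.25 over the 3 tests made. Genes with the same strong peak and some reads, but under 1 FPKM in at least 1 library, lay between these groups at 355 ± 5.29 bp (SD, n = 3; 249 genes). The rule used the window of 2 kb but not the position within it.

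The shape of the distribution differed too. Summits within 250 bp of the TSS were found in 20.7% ± 0.813 of the silent genes and 52.0% ± 0.192 of the expressed genes (SD, n = 3 libraries), and summits over 1000 bp away in 44.1% ± 0.813 and 16.8% ± 0.166. Expressed genes had 33.9% of their summits in the 250 bp just upstream of the TSS, where silent genes had 9.86%. In silent genes no interval of 250 bp held more than 12.2% of the summits. In crab 1, 42 members had the summit upstream of the TSS, 19 inside the gene model and 10 beyond its far end. The side was the same in all 3 libraries for 68 members. Summits past the end of the model made up 13.6% ± 0.813 in silent genes, many of which are shorter than the window, and 2.33% ± 0.333 in expressed genes (SD, n = 3).

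**Figure D2:**
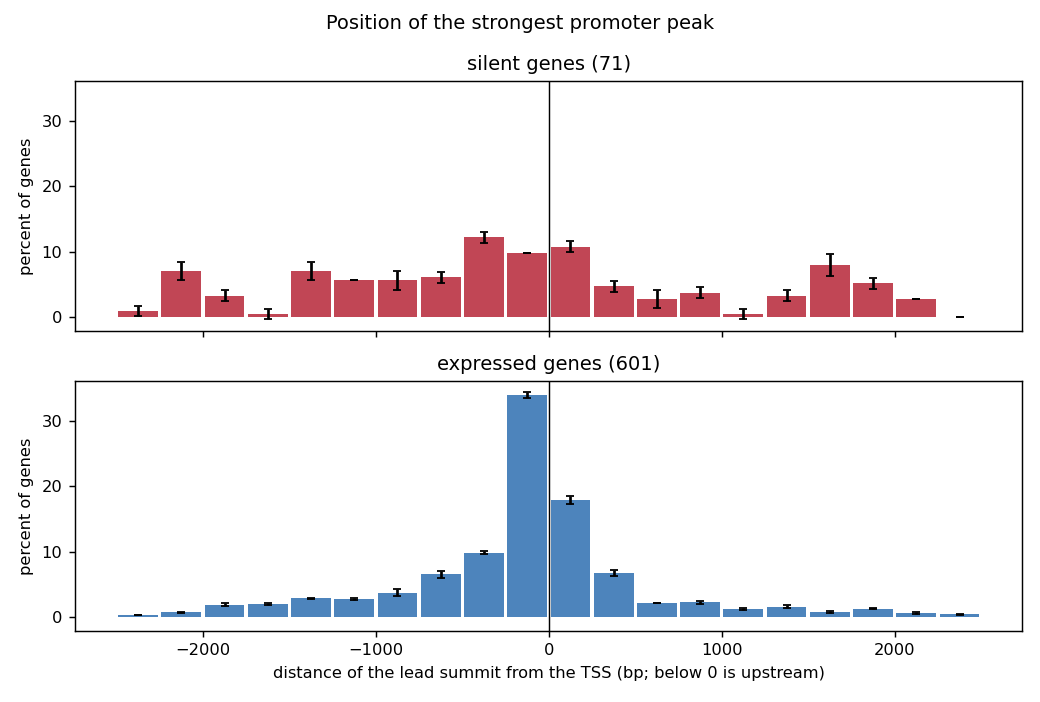
Percent of genes (vertical axis) whose lead summit fell in each interval of 250 bp from the TSS (horizontal axis, in bp, below 0 upstream), for 71 silent genes above and 601 expressed genes with the same kind of peak below; bars are means and error bars SD of 3 ATAC libraries. Expressed genes reach 33.9% in the interval just upstream of the TSS, and silent genes are spread over the whole window, with 12.2% at most.

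The size of this difference followed the settings of the rule. It was 168 bp when both groups needed a fold enrichment of at least 7, 384 bp when the summit itself had to lie in the window, and 387 bp when 50% of the peak had to; a promoter of 1 kb gave 229 bp and one of 0.5 kb gave 146 bp, which a smaller window brings about by itself. Among members with a fold enrichment of at least 8 in all 3 libraries (16 genes) the median distance was 485 ± 4.73 bp, against 329 ± 3.40 bp in 48 expressed genes (SD, n = 3).

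The silent genes were short and simple models. Their median length was 813 bp and their median extent from end to end 2385 bp, against 1692 bp and 13383 bp in the expressed genes with the same kind of peak. The 3780 silent genes without any promoter peak had 755.5 bp and 4085.5 bp. A single block without introns made up 31.0% of members (22 of 71), 8.99% of the expressed genes and 23.5% of the silent genes without a peak. The length was a multiple of 3, as for a model that holds only coding sequence, in 85.9% of members, 56.6% of the expressed genes, 87.0% of the silent genes without a peak and 73.0% of all EVM genes on placed sequences. A model without its untranslated start places the TSS at the start codon, and its distance to the peak then contains the untranslated part.

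The distances within kinds of model were as follows, and the part of missing untranslated starts in them was not tested. Among models with a length that is a multiple of 3, the median distance was 922 ± 34.2 bp in 61 silent genes and 299 ± 13.4 bp in 340 expressed genes (SD, n = 3). Among single-block models it was 1035 ± 6.56 bp in 22 silent genes and 282 ± 18.2 bp in 54 expressed genes. In the 10 members with another length it was 307 ± 14.6 bp, against 112 ± 8.19 bp in 261 expressed genes, the smallest gap of these kinds. The longest member by length was evm.TU.CM024158.1.312 with 5313 bp, at 12603784 to 12610178 on CM024158.1, with fold enrichments of 7.90, 10.3 and 7.79. By extent it was evm.TU.CM024152.1.243_evm.TU.CM024152.1.247 with 218992 bp, at 6903474 to 7122465 on CM024152.1, with fold enrichments of 6.35, 5.14 and 10.4.

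**Figure D3:**
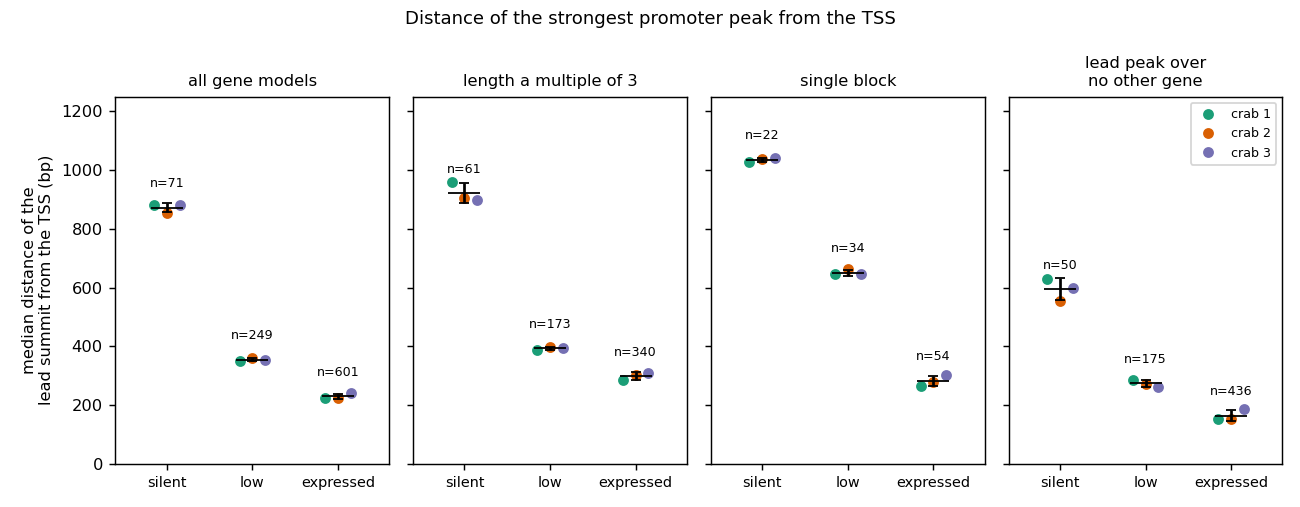
Median distance of the lead summit from the TSS in bp (vertical axis), 1 point per crab with mean and SD in black, for silent genes, genes under 1 FPKM in some library (low) and genes of at least 1 FPKM in all 3 (expressed), all with a strong promoter peak in all 3 libraries; panels show all models and 3 subsets. Silent genes have the longest distance in each panel, 872 bp against 229 bp in expressed genes over all models and 594 bp against 164 bp where the peak touches no other gene.

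A neighbouring gene could be set against each peak. For 7 of the 71 members (9.86%) the lead peak of all 3 libraries also overlapped the promoter of another gene of at least 1 FPKM in all 3 crabs. Over all 921 genes with a strong peak the share was 14.4%, and among the 601 expressed genes it was 15.5%. No member had its lead peak only over the body of an expressed gene. For 14 members (19.7%) the peak overlapped promoters or bodies of genes that were not expressed. This class took 10.3% of the 601 expressed genes. It took 14.5% of the 249 genes with a strong peak but under 1 FPKM in some library. For 50 members (70.4%) the peak touched no other gene, against 71.8% over all 921. The shares with no other gene are near each other, and none of the differences between groups was tested.

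**Figure D4:**
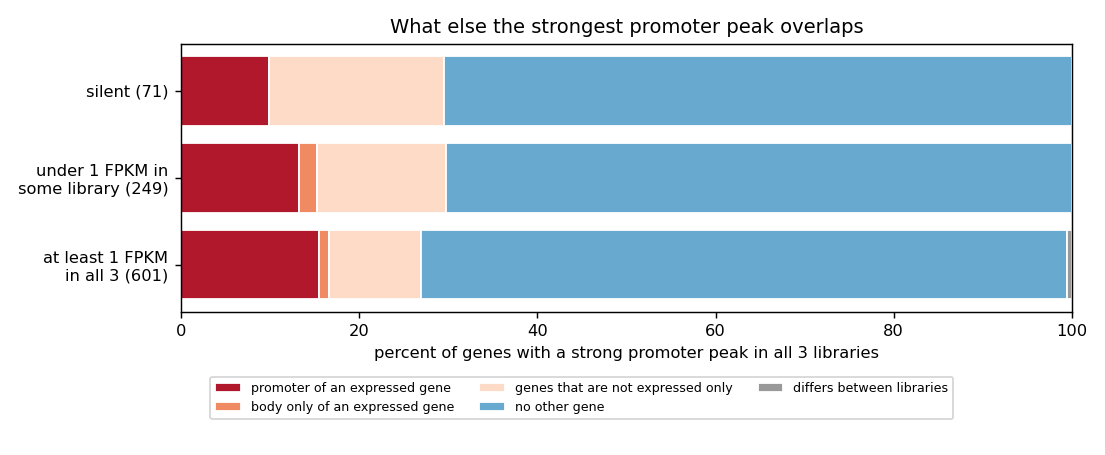
Percent of genes (horizontal axis) by what else their lead peak overlapped in all 3 ATAC libraries, for 71 silent genes, 249 genes under 1 FPKM in some library and 601 genes of at least 1 FPKM in all 3. The class with no other gene is the largest in each group, 70.4% in silent genes and 72.5% in expressed genes, and the promoter of an expressed gene takes 9.86% and 15.5%.

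In 6 of these 7 members the summit was nearer to the TSS of the expressed neighbour than to that of the silent gene in all 3 libraries. The clearest was evm.TU.CM024113.1.229, at 6461890 to 6462780 on CM024113.1, whose summits were 1913, 1924 and 1908 bp from its own TSS and 44, 33 and 49 bp from that of evm.TU.CM024113.1.226_evm.TU.CM024113.1.228. This neighbour starts 1957 bp away on the opposite strand and had 4.53, 4.13 and 3.03 FPKM in crabs 1, 2 and 3. The gene evm.TU.CM024127.1.24, at 666085 to 670541 on CM024127.1, lay 1357 bp from the TSS of evm.TU.CM024127.1.23, a divergent gene of 56.0, 46.6 and 49.5 FPKM. Its summits were 1116, 1370 and 1111 bp from its own TSS and 241, 13 and 246 bp from that of the neighbour. The gene evm.TU.CM024107.1.5, at 42851 to 44794 on CM024107.1, had summits at 2249, 2231 and 2229 bp, and its divergent neighbour evm.TU.CM024107.1.6, with 27.9, 31.1 and 19.2 FPKM, started 757, 775 and 777 bp from them.

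Neighbours on the same strand or overlapping the member made up the rest. The lead peak of evm.TU.CM024127.1.452, at 13470488 to 13470841 on CM024127.1, lay past the end of this 354 bp model, 1562, 1564 and 1564 bp from its TSS and 481, 479 and 479 bp from that of evm.TU.CM024127.1.453, which had 31.1, 17.2 and 32.9 FPKM. In evm.TU.CM024127.1.160, at 3341788 to 3348945 on CM024127.1, the summits were 979, 998 and 1012 bp from its TSS and 346, 327 and 313 bp from that of evm.TU.CM024127.1.159, a gene on the other strand whose model overlaps it, with 7.37, 8.40 and 4.17 FPKM. The neighbour of evm.TU.CM024162.1.237, at 8406783 to 8408674 on CM024162.1, was evm.TU.CM024162.1.236, with 2.21, 2.88 and 1.5 FPKM from 8, 14 and 3 reads, 606, 642 and 610 bp from the summits. These 3 counts are low, and on plain read totals its value in crab 3 was 0.734 FPKM.

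The exception was evm.TU.CM024097.1.316, at 8942389 to 8944506 on CM024097.1, with fold enrichments of 9.07, 8.98 and 12.8. Its summits were 252, 264 and 255 bp from its own TSS and 328, 316 and 325 bp from that of evm.TU.CM024097.1.318, a gene on the same strand inside whose model it lies and which had 35.5, 38.8 and 10.9 FPKM. A further expressed gene, evm.TU.CM024097.1.315, starts 1083 bp away on the opposite strand and had 2.94, 3.34 and 8.33 FPKM. Start sites of 3 genes therefore lay within 1083 bp here, 2 of them expressed. This member and evm.TU.CM024097.1.318 are on the same strand, so that strand could not separate their reads. How reads over 2 overlapping genes were assigned was not stated, nor was strand use in counting. The model overlapped that of another expressed gene in 2 members (2.82%), this one and evm.TU.CM024127.1.160, and in 6.43% of the expressed genes with a strong peak. What this did to their counts of 0 was not tested.

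**Figure D5:**
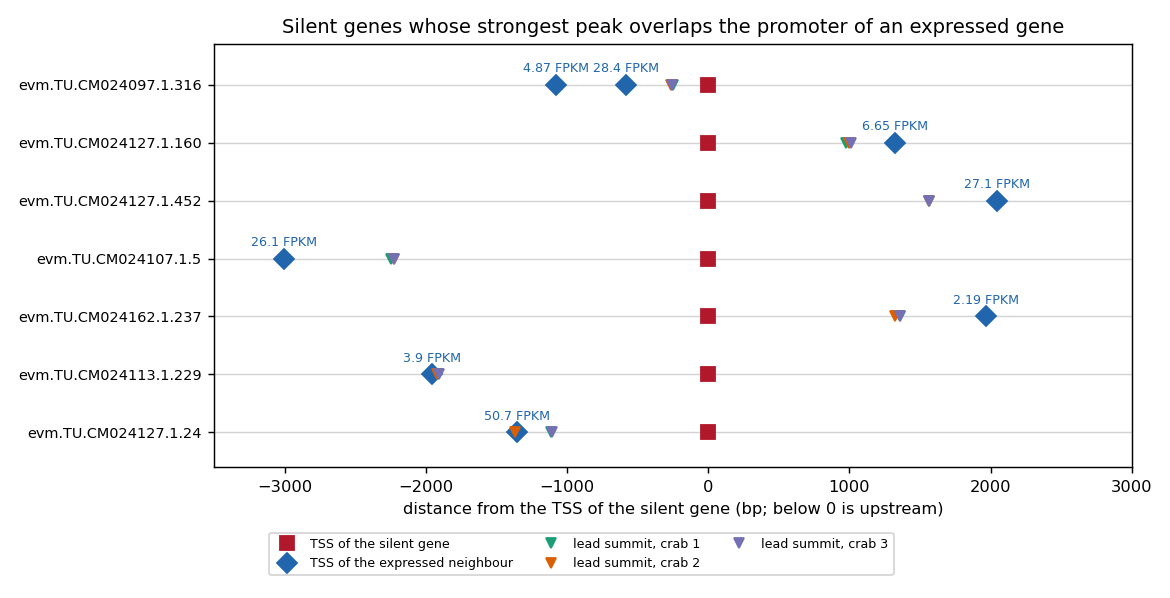
The 7 silent genes (rows) whose lead peak overlapped the promoter of an expressed gene, with the TSS of the silent gene at 0 (square), the TSS of each expressed neighbour (diamond, with its mean FPKM) and the 3 lead summits (triangles, by crab); the horizontal axis is the distance in bp from the TSS of the silent gene, below 0 upstream. The summits lie nearer to the neighbour in 6 rows and nearer to the silent gene in the row of evm.TU.CM024097.1.316.

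Among the 14 members whose peak overlapped only genes that were not expressed, 12 had neighbours without a single read. The other members of this class were evm.TU.CM024114.1.40, inside a long added locus of 4, 2 and 2 reads, and evm.TU.CM024135.1.54, whose divergent neighbour evm.TU.CM024135.1.53 had 0, 0 and 7 reads. In 8 members the neighbour was itself a member, which made 4 pairs with 1 peak each and left 67 distinct peaks for 71 genes. The strongest pair was evm.TU.CM024133.1.353 and evm.TU.CM024133.1.354, on the minus strand of CM024133.1 with start sites 385 bp apart. Their common peak had fold enrichments of 8.70, 10.4 and 18.8, and its summits were 511, 512 and 502 bp upstream of the TSS of evm.TU.CM024133.1.353 and 126, 127 and 117 bp upstream of that of evm.TU.CM024133.1.354.

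The pair evm.TU.CM024147.1.509 and evm.TU.CM024147.1.510, on the plus strand of CM024147.1 with start sites 2610 bp apart, had a peak with fold enrichments of 10, 6.66 and 14.9 between their start sites. Summits were 1467, 1503 and 1502 bp downstream of the first TSS and 1143, 1107 and 1108 bp upstream of the second. All 4 pairs had both genes on the same strand. Paired genes share a peak, and they are not separate observations of it. With 1 gene per peak the difference in distance from the expressed genes was 618 bp. In evm.TU.CM024137.1.354, at 14773748 to 14775259 on CM024137.1, the fold enrichments were 9.57, 9.35 and 13.3, and the neighbour was an added locus without a read whose TSS was 196, 203 and 193 bp from the summits.

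Most of the 50 members whose peak touched no other gene lay far from expressed genes. Peaks within 2 kb of another TSS are outside this class by definition. In 46 of these 50 members the nearest other expressed TSS was over 20 kb from the summit in all 3 libraries, in 37 over 50 kb and in 30 over 100 kb. Matching counts for expressed genes with a peak over no other gene are not given. The shortest distance was 3.73 kb, for evm.TU.CM024131.1.53 on CM024131.1, next to an added locus of 17.8, 12.9 and 7.83 FPKM. Over all 71 members the median distance from the summit to the nearest other expressed TSS was 107 kb, and in the 601 expressed genes it was 22.1 kb. It was over 20 kb for 84.5% of the 71 members and 52.4% of the 601 expressed genes. For the 249 genes with a strong peak but under 1 FPKM in some library the share was 64.7%. Gene density differed less, since the nearest other TSS of any gene was 17.7 kb from the summit in members and 10.5 kb in expressed genes. Measured from the gene's own TSS in each RNA library, the nearest expressed TSS was at a median of 91.3 ± 7.69 kb in members, 17.9 ± 0.541 kb in expressed genes and 87.3 ± 1.92 kb in silent genes without a promoter peak (SD, n = 3). In this the members were close to the other silent genes.

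A nearby expressed TSS was still more frequent among members than among silent genes without a peak. Another gene of at least 1 FPKM started within 4 kb, so that the promoter windows overlapped, for 8, 8 and 9 members by the RNA libraries of crabs 1, 2 and 3, or 11.7% ± 0.813, against 2.58% ± 0.180 of the 3780 silent genes without a peak (SD, n = 3). The share was 20.7% ± 0.419 in the expressed genes with a strong peak, and 14.9% of all EVM genes on placed sequences had such a neighbour in all 3 libraries. Members exceeded the silent genes without a peak by 9.15 ± 0.704 percentage points, in 3 of 3 libraries, and the members minus the expressed genes gave -9.01 ± 1.21 points (SD, n = 3). Exact sign-flip permutation tests (two-sided, 3 libraries) gave p = 0.25 for both, the smallest possible, with adjusted p = 0.25. The first difference was 6.0 points without crab 3, 5.30 with promoters of 1 kb, 2.20 with promoters of 0.5 kb and 5.81 for neighbours of at least 10 FPKM, for which the second was -3.96. This comparison is not free of the grouping, since a silent gene whose window reaches the peak of an expressed neighbour is by definition not among the genes without a peak.

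Summit position went with the class of the neighbour. The median distance from the TSS was 1363 ± 6.66 bp in the 7 members with a peak over an expressed promoter, 1015 ± 18.1 bp in the 14 with a peak over genes that were not expressed and 594 ± 37.6 bp in the 50 with a peak over no other gene (SD, n = 3 libraries). The last class still lay farther out than the 436 expressed genes of the same class, at 164 ± 18.5 bp. The other groups with a strong peak had the same order. Expressed genes with a peak over another expressed promoter (93) were at 494 ± 7.77 bp. Genes under 1 FPKM in some library were at 635 ± 11.9 bp in that class and 274 ± 11.0 bp with no other gene. Each SD here leaves out the spread between genes, and the classes of members are small. In crab 1 the 7 members with a peak over an expressed promoter ranged from 252 to 2249 bp. Of the 50 members, 10 had the summit within 250 bp of the TSS in all 3 libraries, among them evm.TU.CM024153.1.65 and evm.TU.CM024162.1.281. For 12 of 71 members (16.9%) and 64 of 601 expressed genes (10.6%) the summit was nearer to the TSS of another gene than to their own, the same number in each of the 3 libraries. The median width of the lead peak in members was 759, 576 and 736 bp in crabs 1, 2 and 3 against 864, 707 and 963 bp in the expressed genes.

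The surroundings of the members held further accessible regions. Between 2 and 20 kb from the TSS there were on average 1.87 ± 0.129 further peaks per member, 2.13 ± 0.447 per expressed gene with a strong peak and 0.906 ± 0.0623 per silent gene without a promoter peak (SD, n = 3 libraries). A further peak with a fold enrichment of at least 5 was present for 38.0% ± 4.88 of members, 31.0% ± 13.4 of expressed genes and 14.8% ± 3.10 of silent genes without a promoter peak. Peaks were counted by summit, so a lead peak with its summit over 2000 bp from the TSS is among them. This was so in some library for 8 members, whose lead peak also has a fold enrichment of at least 5 by the rule. It also held for a smaller share of the expressed genes, so that both values are raised, by unlike amounts. Summits 2000 to 2250 bp upstream, for example, made up 7.04% in members and 0.721% in expressed genes. The direction between these groups differed by library in both measures. Members had more further peaks in crab 2 (1.73 against 1.64) and fewer in crabs 1 and 3. A further strong peak was more frequent in members in crabs 1 and 2 and less so in crab 3 (43.7% against 46.3%). Neither difference was tested. Within the promoter window, 20.2% ± 1.63 of members and 31.9% ± 0.880 of expressed genes had more than 1 peak (SD, n = 3).

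Members were found on 40 of the 72 placed sequences, with at most 6 on any one. These 6 were on CM024137.1, which held 8.45% of the members, 1.66% of the expressed genes with a strong peak and 1.64% of all EVM genes on placed sequences. Of the 6, 5 lay beyond 20 Mb of this sequence, a boundary set after the positions were seen: evm.TU.CM024137.1.501, evm.TU.CM024137.1.566, evm.TU.CM024137.1.573, evm.TU.CM024137.1.617 and evm.TU.CM024137.1.656. In that stretch 62 of 67 EVM genes (92.5%) had no read and 0 reached 1 FPKM in all 3 crabs, whereas before it 64 of 271 (23.6%) had no read and 117 reached 1 FPKM. Members are drawn only from genes without a read, which made up 23.9% of all EVM genes on placed sequences. The share of all EVM genes is therefore not their matching base. Of the genes without a read, 5 of 62 beyond 20 Mb and 1 of 64 before it were members. Over all placed sequences 71 of 4935 (1.44%) were, and this difference was not tested. The summits of these 5 members were 2.08 to 10.1 Mb from the nearest expressed TSS. Only 1 further member, evm.TU.CM024096.1.300 on CM024096.1, was over 1 Mb from one.

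None of the 71 members was among the 904 genes for which the study called a change between molting stages in both assays, lists that it drew partly from these libraries. On the same lists were 28 of the 4935 silent EVM genes on placed sequences (0.567%) and 70 of the 601 expressed genes with a strong peak (11.6%). A gene has to be read in some stage to be listed, which genes without a read in this one meet less easily.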

How the data were processed

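RNA-seq and ATAC-seq of muscle from 3 inter-molt crabs were used. For RNA-seq, the authors trimmed reads with Trimmomatic, aligned them with HISAT2 2.0.5, counted them per gene with featureCounts 1.5.0-p3, without reads of several positions, and deposited FPKM, on a library size of their own. Each FPKM times the gene length was a whole multiple of 1 step within 1% for 100% of values, which gave the reads. For ATAC-seq, the authors trimmed with skewer, aligned with BWA and called peaks per library with MACS2. The fold enrichment (a ratio), the −log10 p and −log10 q and the score are deposited values. No source used here states a shift of reads for the transposase. The peak names in the list of crab 3 carry another number, so that its sample record places it.

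Of the summits of a peak the highest was kept, and starts were raised by 1. A peak overlapped a window with at least 1 base. Genes named are the 10 members with the highest mean fold enrichment, the 5 highest per neighbour class (all 7 for expressed promoters), those with the most expressed neighbours, 3 on either side of the threshold, the longest and the most variable. Others named beside small counts, the subsets by gene length and the boundary on CM024137.1 were chosen after their values were seen. The members and groups were chosen with earlier results of these data known. Differences were tested over libraries by exact sign-flip permutation with Benjamini-Hochberg adjustment. Alternatives varied the threshold, window, overlap, silence, expression and libraries. Functions were tested on simulated data. No column of another sample was present. Tools were numpy 2.4.6, pandas 2.3.3, scipy 1.17.1 and matplotlib 3.10.9 under python 3.11.15. No genome sequence was used.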

Additional observations from a re-analysis of the deposited data

How the results depend on the processing

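The 3 differences between groups kept their direction in all 51 alternative values computed for them, 6 of which came from settings chosen after seeing the data, and none of their tests could give a p below 0.25 with 3 libraries. The difference in summit distance lay between 146 bp (promoter of 0.5 kb) and 753 bp (single-block models), and it was 431 bp where the peak touched no other gene. The number of silent genes with strong peaks was 137 and 29 with a fold enrichment of at least 4 and 7, and 46 and 36 with promoters of 1 kb and 0.5 kb. Leaving out 1 crab gave 90 to 125. The share of members whose peak overlapped another promoter was 15.2% with promoters of 1 kb and 11.1% with 0.5 kb. With 0.5 kb, 2.78% of members had a peak over an expressed promoter, the same 2.78% over an expressed gene at all, and 86.1% over no other gene. A smaller window holds fewer neighbours by construction. The remaining 105 of 116 alternative values stayed within 1.5 times the count or within the exact binomial interval of the share, or kept their sign. The 4 shares of members by overlapped gene were the same in all 3 libraries at the settings of the report, so that this interval was used in place of the SD. The sign-flip tests take the difference between gene groups within each library. No paired analysis was possible because all libraries belong to 1 group, so that no groups of samples sharing replicate numbers were compared. Precision is limited by 3 crabs with 1 library per assay, by RNA depth for short models, and by gene models without checked start sites.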

Other observations

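The same criteria also found genes outside the placed EVM models. Among loci added by the authors on placed sequences, 74 of 2648 without a read (2.79%) had a strong promoter peak in all 3 ATAC libraries, and among EVM genes on unplaced sequences 50 of 442 (11.3%) did, against 1.44% for EVM genes without a read on placed sequences. A further 68 silent EVM genes on placed sequences had a strong promoter peak in 2 libraries and 146 in 1. A promoter peak of any strength was present in all 3 libraries for 378 of the 4935.

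Ranks of fold enrichment over the 71 members went together only in part between crabs, with a Spearman rho of 0.560 for crabs 1 and 2. It was 0.369 for crabs 2 and 3 and 0.377 for crabs 3 and 1. Over the 601 expressed genes with a strong peak the values were 0.489, 0.529 and 0.550. These are descriptions across genes that share libraries and a lower bound of 5 on every value.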
